A study of Mus musculus with 26 samples.

Results

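The testis of ArKI mice was compared with that of WT mice by RNA-seq over all genes. Of the 26 samples of the series, the 6 from the testis were used, 3 ArKI and 3 WT, while the other 20 are of epididymal tissue, either initial segment (IS) or caput. All mice were C57Bl/6N; 129 hybrids at the age of 3 months. ArKI males carry a knock-in that changes lysines which accept SUMO, a small protein attached to other proteins, to arginines in every cell. The knock-in was made in G4 embryonic stem cells, the selection cassette was removed with FLP recombinase, and an *Frt* site remains. By the study's methods the testes came from 3 mice of each genotype, with wild-type littermates as controls, but the labels do not tie a numbered sample to an animal or litter. Whole testes hold germ cells, Sertoli, peritubular and interstitial cells together.

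Testosterone is made by the Leydig cells of the interstitium from cholesterol, through *Star*, *Cyp11a1*, the 3β-hydroxysteroid dehydrogenases, *Cyp17a1* and *Hsd17b3*. It acts in the testis mainly on Sertoli, peritubular and Leydig cells, and germ cells depend on these neighbours to complete meiosis and spermiogenesis. SUMOylation of a transcription factor can modulate its activity at some of its target genes. Lists of markers for each of these cell types, and for blood vessels, immune cells, ducts and epididymal epithelium, were therefore read beside the list of all genes.

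The depth of the 6 libraries ranged from 14077013 to 21376604 counts, so that 3 counts correspond to 0.14 to 0.213 CPM, the count relative to the scaled library total. Depth limits how far low genes can be read, and these floors cover counting error only. On log2 CPM, libraries correlated at 0.994 to 0.9959 within a group and at 0.9905 to 0.9938 between the groups, and the first principal component, with 40.1% of the variance, placed the 3 WT libraries on one side and the 3 ArKI libraries on the other. Markers of the labelled tissue were abundant. The protamine *Prm2*, which packs sperm DNA, was at 4894, 6050 and 5630 CPM in the WT libraries and 6520, 6164 and 5238 CPM in the ArKI libraries. The other genes with the highest CPM in WT were *Odf2*, a tail fibre protein, *Ldhc*, the germ cell lactate dehydrogenase, and the scaffold protein *Akap12*, and the log2 fold changes of these 4 genes lay between -0.14 (*Akap12*) and 0.11 (*Prm2*), with adjusted p of 0.344 or more.

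Of 16 tested genes for steroid receptors, their cofactors and enzymes of the SUMO pathway, none passed an adjusted p below 0.05 in edgeR, DESeq2 or limma-voom, and 2 had an unadjusted p below 0.05 in each of them. The 2 with the highest CPM were *Pias2*, a SUMO ligase (log2 fold change -0.05), and *Senp2*, which removes SUMO (-0.06). The median of the list was -0.10 and was -0.03 when gene length was corrected for.

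Genes were called by 2 rules. By the study's thresholds for the testis, an FDR below 0.2 with a fold change above 2, 0.751% of the 15838 genes tested were higher in ArKI and 0.0821% were lower. At an FDR below 0.05 with no limit on the fold, used for the lists below, 1.64% were higher (259 genes) and 0.328% were lower (52 genes). The rises were larger than the falls, with a median log2 change of 0.78 among the 259 and 0.36, in size, among the 52. All 3 ArKI libraries lay above all 3 WT libraries in 9.35% of tested genes and below them in 8.49%, and the median log2 fold change of all tested genes was -0.0023. An unadjusted p below 0.05 was found in 2067 of the 15838 genes. The 22 lists hold 495 tested genes, of which 29 passed the second rule upwards and 2 downwards.

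**Figure D1:**
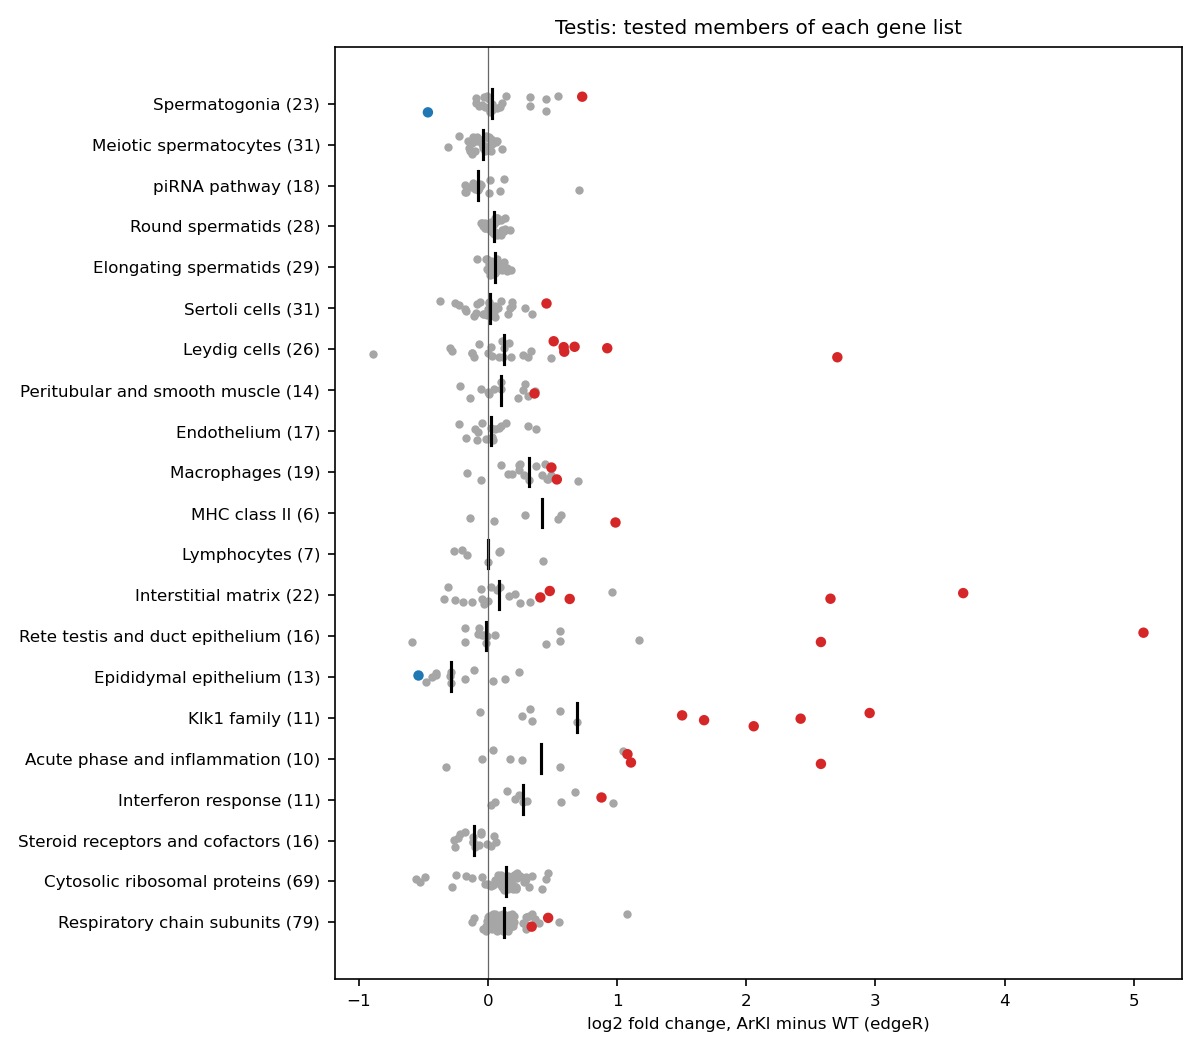
Log2 fold change (ArKI minus WT, edgeR) of every tested member of 21 gene lists in the testis, with the number tested in brackets. Each point is a gene, red where it rose and blue where it fell at an FDR below 0.05, and grey otherwise; the black bar is the median of the list. Red points are found mainly in the Leydig cell, interstitial matrix and *Klk1* lists, whereas the meiotic, piRNA and spermatid lists hold none.

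Among Leydig cell genes, 3 enzymes of testosterone synthesis rose. *Cyp11a1*, the side chain cleavage enzyme that makes pregnenolone from cholesterol, was at 144, 114 and 149.9 CPM in the WT libraries and 274, 248 and 253 CPM in the ArKI libraries. *Cyp17a1*, which converts pregnenolone and progesterone towards androgens, was at 324, 252 and 302 CPM in the WT libraries and 454, 421 and 445 CPM in the ArKI libraries. For both genes every ArKI library lay above every WT library. The rises were 1.898-fold for *Cyp11a1* (log2 fold change 0.92 ± 0.08 (SE), adjusted p = 1.05e-06) and 1.503-fold for *Cyp17a1* (log2 fold change 0.59 ± 0.07 (SE), adjusted p = 4.35e-05). *Hsd17b3*, which makes testosterone from androstenedione, was at 25.9, 23.1 and 22.5 CPM in the WT libraries and 33.3, 31.6 and 37.1 CPM in the ArKI libraries, again without overlap (log2 fold change 0.51 ± 0.09 (SE), adjusted p = 0.00165). In bulk tissue, more cells of a type and more RNA per cell cannot be told apart.

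Other steps of the same pathway did not pass the test. *Star*, which brings cholesterol into mitochondria, was at 133, 72.8 and 85.7 CPM in the WT libraries and 126, 124 and 119.6 CPM in the ArKI libraries. WT library 1 was as high as the ArKI libraries, and the groups overlapped (log2 fold change 0.33 ± 0.25 (SE), adjusted p = 0.668). *Hsd3b1*, a 3β-hydroxysteroid dehydrogenase, went the other way at 65.05, 73.8 and 38.3 CPM in the WT libraries and 33.9, 31.98 and 30.1 CPM in the ArKI libraries. All 3 ArKI libraries lay below the WT libraries, but WT library 3 was close to them (log2 fold change -0.89 ± 0.27 (SE), adjusted p = 0.289). Its neighbour *Hsd3b6*, whose transcript is similar enough to share reads, was at 106, 62 and 101 CPM in the WT libraries and 72.8, 75.05 and 74.9 CPM in the ArKI libraries with overlapping groups (adjusted p = 0.681). *Insl3*, the Leydig cell hormone for testis descent, was at 29.2, 32.5 and 24.1 CPM in the WT libraries and 34.97, 23.1 and 29.7 CPM in the ArKI libraries, with a log2 fold change of 0.02 ± 0.15. The luteinizing hormone receptor *Lhcgr* (log2 fold change -0.29), the steroidogenic factor *Nr5a1* (0.08) and the lipoprotein receptor *Scarb1* (0.11), which had the highest CPM of the list in WT after *Cyp17a1*, had adjusted p from 0.492 to 0.776. The rise was seen in 3 enzymes of the pathway and did not pass the test in the markers *Insl3* and *Nr5a1*.

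Other Leydig cell members rose too. *Sult1e1*, the estrogen sulfotransferase, was at 21.1, 16.2 and 8.77 CPM in the WT libraries and 101, 91.2 and 112 CPM in the ArKI libraries. Its 6.52-fold rise was the largest of the list and had an adjusted p of 0.032, and the WT libraries spread over more than a 2-fold range. The growth factor *Igf1*, which supports Leydig cell maturation, was at 9.06, 9.91 and 11.5 CPM in the WT libraries and 16.1, 16.4 and 15.8 CPM in the ArKI libraries (log2 fold change 0.67 ± 0.11 (SE), adjusted p = 0.000614). *Hao2*, a peroxisomal hydroxyacid oxidase, rose with a log2 fold change of 0.59 ± 0.15 (adjusted p = 0.0474), and lost its call without WT 1, WT 3, ArKI 1, ArKI 2 or ArKI 3 (adjusted p = 0.0704 to 0.245), and in all under 11 of 16 alternatives, DESeq2 and limma-voom among them. *Cyp21a1*, a 21-hydroxylase that the adrenal gland uses, was on no list and was at 3.72, 3.81 and 1.64 CPM in the WT libraries and 20.9, 12.8 and 13.1 CPM in the ArKI libraries (log2 fold change 2.32 ± 0.33 (SE), adjusted p = 0.0232). In all, 6 of 26 tested Leydig genes (23.1%) rose and none fell by edgeR at an FDR below 0.05, beside 1.64% and 0.328% of all tested genes. An unadjusted p below 0.05 was found in 9 of the 26, and in 2067 of all 15838 tested genes. DESeq2 and limma-voom each called 5 up and 0 down. Without ArKI 1 or ArKI 2, 4 rose, and without WT 2 or WT 3, 5 rose and 1 fell. The median log2 fold change was 0.12, beside -0.0023 for all tested genes, 0.16 with gene length corrected and 0.224 without WT 1. The summed level of the 26 genes was 1286 to 1576 CPM in WT and 1757 to 1852 CPM in ArKI. *Sult1e1* was put on the list with its rise known.

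**Figure D2:**
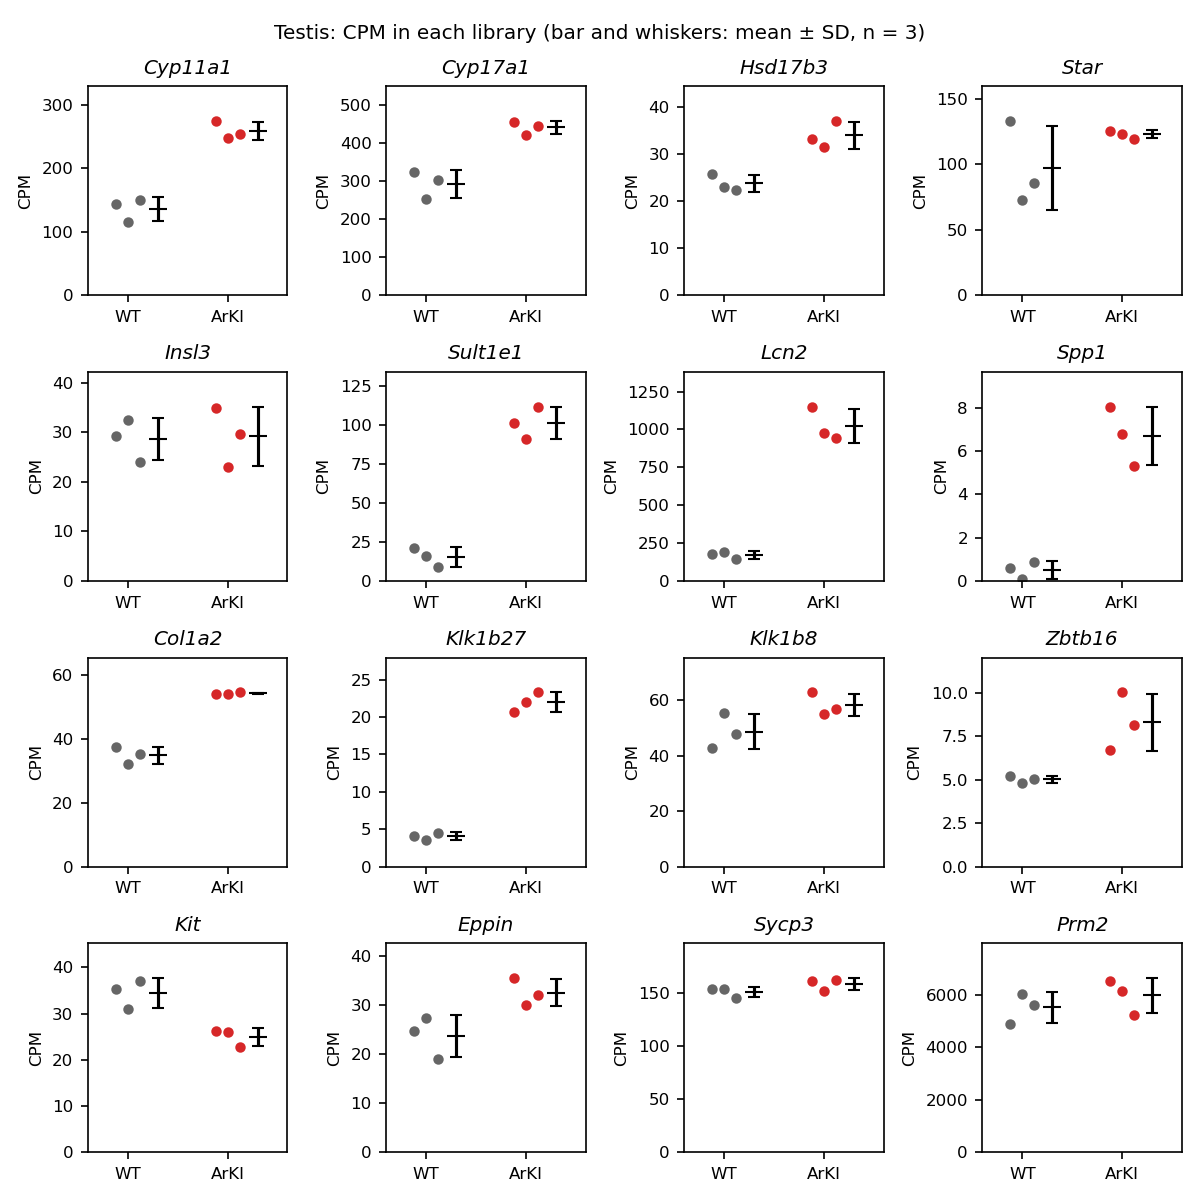
CPM (TMM-scaled) of 16 genes in each of the 3 WT and 3 ArKI testis libraries, with the mean ± SD beside the points (n = 3), all axes starting at 0. *Cyp11a1*, *Cyp17a1*, *Hsd17b3*, *Lcn2*, *Spp1*, *Col1a2* and *Klk1b27* show no overlap of the groups, *Star* and *Insl3* overlap, *Kit* is lower in ArKI, and the germ cell genes *Sycp3* and *Prm2* are at similar levels.

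Glandular kallikreins rose in part, with 5 copies well above their WT level. These serine proteases are encoded by *Klk1* and its *Klk1b* copies, which lie side by side on the plus strand of chromosome 7, and several of them are known in mouse Leydig cells and as androgen-regulated genes of the salivary gland. The 250 bases upstream of the RefSeq starts (GRCm38.p6) are shown for the 5 copies that rose and for *Klk1b9*, which did not pass, because the copies are so alike. Capitals mark AGAACA or GGAACA, half-site letters of steroid response elements, searched on both strands.
Klk1b27: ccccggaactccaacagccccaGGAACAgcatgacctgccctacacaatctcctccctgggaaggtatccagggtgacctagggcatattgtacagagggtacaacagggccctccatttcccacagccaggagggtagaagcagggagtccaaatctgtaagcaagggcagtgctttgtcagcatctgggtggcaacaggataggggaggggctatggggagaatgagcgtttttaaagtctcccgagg
Klk1b21: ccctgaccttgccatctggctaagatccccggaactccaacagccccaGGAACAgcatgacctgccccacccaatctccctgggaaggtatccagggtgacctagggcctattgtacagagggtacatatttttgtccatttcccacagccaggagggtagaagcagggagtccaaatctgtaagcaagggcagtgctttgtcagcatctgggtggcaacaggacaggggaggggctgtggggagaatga
Klk1b24: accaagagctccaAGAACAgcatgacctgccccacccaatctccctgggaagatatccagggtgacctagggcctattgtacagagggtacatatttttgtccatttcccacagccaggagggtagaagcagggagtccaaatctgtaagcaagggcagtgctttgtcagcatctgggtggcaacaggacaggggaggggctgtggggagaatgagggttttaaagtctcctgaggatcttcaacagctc
Klk1b16: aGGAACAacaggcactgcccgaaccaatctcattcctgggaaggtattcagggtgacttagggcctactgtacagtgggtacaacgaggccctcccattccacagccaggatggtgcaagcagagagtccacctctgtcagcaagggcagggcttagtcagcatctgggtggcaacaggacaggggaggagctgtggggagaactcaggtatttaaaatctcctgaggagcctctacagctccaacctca
Klk1b22: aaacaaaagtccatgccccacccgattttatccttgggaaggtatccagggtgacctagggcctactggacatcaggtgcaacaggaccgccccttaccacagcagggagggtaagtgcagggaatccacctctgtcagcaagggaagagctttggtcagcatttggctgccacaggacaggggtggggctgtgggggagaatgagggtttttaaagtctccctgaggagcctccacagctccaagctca
Klk1b9: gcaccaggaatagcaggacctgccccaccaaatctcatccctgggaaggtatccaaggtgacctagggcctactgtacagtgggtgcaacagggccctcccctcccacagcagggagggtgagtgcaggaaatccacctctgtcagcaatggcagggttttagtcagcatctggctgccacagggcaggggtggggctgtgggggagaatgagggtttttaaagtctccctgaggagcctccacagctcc
They cover chr7:44052040-44052289, chr7:44102042-44102291, chr7:44187986-44188235, chr7:44137040-44137289, chr7:44112423-44112672 and chr7:43975811-43976060 in that order. Aligned without penalty at the ends, *Klk1b21* was identical to *Klk1b24* at 97.7% of 215 aligned bases and to *Klk1b27* at 94.6% of 224, while *Klk1b22* was nearest to *Klk1b9*, at 87.2% of 243. One of the 2 half-sites was found once in *Klk1b16*, *Klk1b21*, *Klk1b24* and *Klk1b27*, and in neither *Klk1b22* nor *Klk1b9*. The half-sites did not fully separate the copies that rose from the others. One was also found in *Klk1b3*, which did not pass (log2 fold change 0.33), and in *Klk1b11* and *Klk1b26*, which were too low to test. The other tested copies that did not pass, *Klk1*, *Klk1b4*, *Klk1b5*, *Klk1b8* and *Klk1b9*, held none, nor did *Klk1b1*, which was too low to test. AGAACA occurs in 16.1% and GGAACA in 13.3% of the 32851 RefSeq promoters over the same window. The whole palindrome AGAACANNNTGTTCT was in none of these 6 and in 3 promoters of all. A match of letters is no evidence of binding.

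*Klk1b27* was at 4.14, 3.59 and 4.56 CPM in the WT libraries and 20.7, 22.01 and 23.3 CPM in the ArKI libraries. *Klk1b24* was at 6.18, 7.47 and 8.41 CPM in the WT libraries and 30.1, 27.2 and 34.2 CPM in the ArKI libraries, and *Klk1b21* at 6.12, 6.83 and 8.91 CPM in the WT libraries and 22.9, 22.9 and 23.6 CPM in the ArKI libraries. In each of the 3, the lowest ArKI library was more than 2 times as high as the highest WT library. They rose 5.36-fold (adjusted p = 1.74e-11), 4.16-fold (adjusted p = 2.01e-10) and 3.19-fold (adjusted p = 4.08e-09). *Klk1b22* was lower at the start, at 0.8401, 1.15 and 2.14 CPM in the WT libraries and 12.4, 9.26 and 10.1 CPM in the ArKI libraries (log2 fold change 2.96 ± 0.22 (SE), adjusted p = 2.73e-08), and *Klk1b16* was at 1.08, 1.72 and 2.28 CPM in the WT libraries and 5.77, 3.25 and 5.43 CPM in the ArKI libraries (log2 fold change 1.504 ± 0.26 (SE), adjusted p = 0.00297). *Klk1b8*, the copy with the highest CPM in WT, was at 42.7, 55.2 and 47.7 CPM in the WT libraries and 62.8, 54.9 and 56.9 CPM in the ArKI libraries with overlapping groups (adjusted p = 0.149). *Klk1b9* did not move beyond its spread, at 10.4, 11.1 and 14.3 CPM in the WT libraries and 11.97, 12.5 and 9.702 CPM in the ArKI libraries (log2 fold change -0.06 ± 0.13 (SE), adjusted p = 0.895). In the family, 5 of 11 tested members (45.5%) rose, beside 1.64% of all tested genes, and none fell. The median was 0.69, 0.411 without WT 3 and 1.05 without WT 2. Also 5 up and 0 down were counted with DESeq2 and limma-voom. Reads of 50 bases that fit several copies were not counted, and how reads divide between such similar genes is uncertain. Neither the IS nor the caput, which were sequenced in another run, held these transcripts at the testis level, and *Klk1b27* was at 0.365 and 0.374 CPM there in WT.

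Germ cell programmes differed little between the groups. None of the 31 tested meiotic genes, 18 piRNA pathway genes, 28 round spermatid genes and 29 elongating spermatid genes passed the FDR of 0.05 in edgeR, DESeq2 or limma-voom. By edgeR 2, 4, 0 and 3 of them, respectively, had an unadjusted p below 0.05. Single libraries moved these counts. Without WT 2, 12 round spermatid genes had an unadjusted p below 0.05 and 1 was called upwards (median 0.118), and for elongating spermatids the counts were 9 and 0 (median 0.111). For the piRNA genes the count was 7 without WT 2 and 1 without WT 3 or ArKI 1. Without ArKI 3, 6 meiotic genes had an unadjusted p below 0.05 and 1 was called downwards. Without WT 1 the spermatid medians were -0.0146 and -0.0111. With all libraries, the medians were -0.03 for meiosis, -0.07 for the piRNA pathway, 0.05 for round and 0.05 for elongating spermatids. Correcting for gene length took the spermatid medians to 0.0014 and -0.01. The meiotic median moved away from 0, to -0.0644, and to -0.0782 with length and GC, and the piRNA median was -0.0677 with length corrected. Summed over members, meiotic genes were at 8697 to 9196 CPM in WT and 8976 to 9062 CPM in ArKI, and elongating spermatid genes, which *Prm2* and *Odf2* lead, at 34480 to 40430 CPM in WT and 37080 to 40820 CPM in ArKI. The ranges of the groups overlapped for these lists. The piRNA genes, at 4883 to 5059 CPM in WT and 4532 to 4873 CPM in ArKI, did not overlap and were lower in ArKI.

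*Hspa2*, the heat shock protein of meiotic cells, was at 1305, 1333 and 1397 CPM in the WT libraries and 1319, 1245 and 1215 CPM in the ArKI libraries (log2 fold change -0.09 ± 0.06). For *Mael*, a piRNA factor that silences transposons, the log2 fold change was 0.02 ± 0.06. *Tdrd6*, a tudor protein of the chromatoid body, was at 1030, 989 and 1087 CPM in the WT libraries and 834, 928 and 979.8 CPM in the ArKI libraries, and its ArKI libraries all lay below the WT ones (log2 fold change -0.18 ± 0.06 (SE), adjusted p = 0.206). It was 1 of 6 piRNA genes of 18 with such a separation downwards, against 8.49% of all tested genes. For *Tdrd6*, with length corrected, the log2 fold change was -0.09. The round spermatid genes *Actl7b*, an actin-like protein, and *Hook1*, a microtubule linker, had log2 fold changes of 0.05 ± 0.07 and -0.00178 ± 0.07.

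Among spermatogonial genes, 1 of 23 rose, 1 fell, and the median was 0.03. *Zbtb16* (PLZF), which maintains undifferentiated spermatogonia, was at 5.22, 4.81 and 5.06 CPM in the WT libraries and 6.71, 10.02 and 8.14 CPM in the ArKI libraries. It rose without overlap (log2 fold change 0.73 ± 0.15 (SE), adjusted p = 0.00833), and without ArKI library 2 the adjusted p was 0.112. *Kit*, the receptor that marks differentiating spermatogonia and is also made by Leydig cells, was at 35.4, 30.96 and 37.1 CPM in the WT libraries and 26.3, 25.96 and 22.8 CPM in the ArKI libraries. It fell without overlap (log2 fold change -0.46 ± 0.09 (SE), adjusted p = 0.00486), with an adjusted p of 0.0657 without WT library 3. The stem cell receptor gene *Gfra1* (log2 fold change -0.09 ± 0.16) and the meiotic entry gene *Stra8* (0.09 ± 0.10) did not pass. Neither did the abundant *Dmrtb1*, which times meiotic entry, and *Ddx4*, a germ cell helicase, at 0.01 ± 0.06 and -0.03 ± 0.06.

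Sertoli cell genes showed little change. Of 31 tested, 1 rose, none fell and 8 had an unadjusted p below 0.05 (4 without WT 3). The median was 0.02, -0.0389 without ArKI 1, -0.0108 without WT 3 and 0.0636 without ArKI 2. The one that passed was *Eppin*, a protease inhibitor of the sperm surface listed under its older symbol *Spinlw1*, at 24.7, 27.4 and 19.03 CPM in the WT libraries and 35.5, 30.1 and 31.9 CPM in the ArKI libraries (log2 fold change 0.45 ± 0.11 (SE), adjusted p = 0.0301). It no longer passed after length correction (adjusted p = 0.0574) or without WT 1, WT 3, ArKI 1 or ArKI 3. The abundant *Clu*, a secreted chaperone, was at 954, 978 and 941 CPM in the WT libraries and 1039, 909.5 and 929 CPM in the ArKI libraries, and *Ctsl*, the protease cathepsin L, at 358, 375 and 338 CPM in the WT libraries and 413, 390.2 and 417 CPM in the ArKI libraries (log2 fold change 0.19 ± 0.06 (SE), adjusted p = 0.14). *Rhox5*, a homeobox gene that answers to androgen in Sertoli cells, was at 14.2, 13.2 and 11.5 CPM in the WT libraries and 17.9, 13.8 and 16.2 CPM in the ArKI libraries and its groups overlapped (log2 fold change 0.29 ± 0.11 (SE), adjusted p = 0.253). The log2 fold changes of *Kitl*, the ligand of *Kit*, and *Inhbb*, an inhibin subunit, were -0.37 ± 0.12 and -0.26 ± 0.08 (adjusted p = 0.173 and 0.127).

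Among 14 peritubular and smooth muscle genes, *Acta2*, the smooth muscle actin of the tubule wall, rose. It was at 49.4, 48.7 and 48.6 CPM in the WT libraries and 71.9, 56.2 and 59.9 CPM in the ArKI libraries (log2 fold change 0.35 ± 0.08 (SE), adjusted p = 0.0226), and the call was lost without WT 1, WT 3 or ArKI 1. *Actg2* and *Mylk*, the members with the highest CPM, had log2 fold changes of 0.05 and -0.05. The median of the list was 0.10, 0.16 with length corrected and 0.204 without ArKI 1. An unadjusted p below 0.05 was found in 6 of the 14 genes, and 2 were called upwards with length corrected. In 4 (28.6%) all ArKI libraries lay above all WT libraries, against 9.35% of all tested genes, and in 1 all lay below. None of 17 endothelial genes passed in edgeR, DESeq2 or limma-voom, 2 had an unadjusted p below 0.05 by edgeR, and their median was 0.03. *Vwf*, the clotting factor carrier of vessels, and the vascular regulator *Sox17* had log2 fold changes of -0.22 and -0.0972. *Alas2*, the only tested blood gene, an enzyme of haem synthesis, had one of -0.02.

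Matrix genes of the interstitium rose in part. The fibrillar collagen *Col1a2* was at 37.4, 32.1 and 35.1 CPM in the WT libraries and 54.1, 54.1 and 54.6 CPM in the ArKI libraries, and its partner *Col1a1* at 15.8, 15.2 and 18.2 CPM in the WT libraries and 24.1, 21.7 and 22.9 CPM in the ArKI libraries. The collagen-binding glycoprotein *Sparc* was at 323, 323 and 318 CPM in the WT libraries and 456, 401 and 420.1 CPM in the ArKI libraries. In all 3 genes the groups stood apart, with log2 fold changes of 0.63 ± 0.08, 0.48 ± 0.10 and 0.41 ± 0.06 (adjusted p = 1.57e-05, 0.00575 and 0.000275). The secreted phosphoprotein *Spp1* (osteopontin) was near the floor in WT, at 0.6001, 0.0718 and 0.856 CPM in the WT libraries and 8.02, 6.77 and 5.31 CPM in the ArKI libraries (log2 fold change 3.68 ± 0.32 (SE), adjusted p = 1.54e-06). *Thbs4*, a matrix glycoprotein, was lower still, at 0.42, 0.215 and 0 CPM in the WT libraries and 1.44, 1.599 and 1.27 CPM in the ArKI libraries (log2 fold change 2.65 ± 0.46 (SE), adjusted p = 0.00135). Both were put on the list with their rises known. In the list, 5 of 22 genes (22.7%) rose, beside 1.64% of all tested genes, none fell, and the median was 0.09. *Dcn*, the proteoglycan decorin, was at 34.3, 38.1 and 44.3 CPM in the WT libraries and 38.6, 40.4 and 45.4 CPM in the ArKI libraries with overlapping groups (log2 fold change 0.0957).

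Of 19 tested macrophage markers, 17 had a positive log2 fold change, as had 7801 of all 15838 tested genes. At the FDR of 0.05, 2 rose (10.5%, beside 1.64% of all tested genes) and none fell, and the median of the list was 0.32. *Lyz2*, the lysozyme of macrophages, was at 11.3, 13.9 and 11.8 CPM in the WT libraries and 18.8, 15.3 and 19.5 CPM in the ArKI libraries (log2 fold change 0.53 ± 0.11 (SE), adjusted p = 0.0111), and *C1qb*, a chain of the complement component C1q, at 8.82, 11.7 and 10.2 CPM in the WT libraries and 15.9, 14.2 and 12.9 CPM in the ArKI libraries (log2 fold change 0.49 ± 0.12 (SE), adjusted p = 0.029). The call of *Lyz2* was lost without WT 1, WT 3 or ArKI 3, and that of *C1qb* without WT 1, WT 3, ArKI 1 or ArKI 2 and in DESeq2 (adjusted p = 0.0572). The general markers *Aif1* and *Mrc1*, the latter the mannose receptor, had log2 fold changes of 0.0994 and -0.05. The summed level of the list was 478 to 525 CPM in WT and 517 to 564 CPM in ArKI, which overlap. Most of this sum was *Aif1*, with means of 349 CPM in WT and 374 CPM in ArKI, so it says little about the other members. Of 6 genes for MHC class II antigen presentation, *H2-Eb1* rose, at 5.28, 6.39 and 3.14 CPM in the WT libraries and 8.59, 11.8 and 8.78 CPM in the ArKI libraries (log2 fold change 0.98 ± 0.20 (SE), adjusted p = 0.0157), with the call lost without WT 1, ArKI 1 or ArKI 2. *Cd74*, the invariant chain, was at 14.5, 16.7 and 9.55 CPM in the WT libraries and 17.4, 25.1 and 17.5 CPM in the ArKI libraries (adjusted p = 0.374), and *H2-Ab1* had a log2 fold change of 0.29. No lymphocyte gene of 7 passed in edgeR, DESeq2 or limma-voom, and none had an unadjusted p below 0.05, but without ArKI 3 1 was called upwards. *Cd3d*, a T cell receptor subunit, had a log2 fold change of 0.43 ± 0.53.

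Among genes of inflammation, 3 rose. *Lcn2* (lipocalin 2), an iron-binding acute phase protein, rose 5.97-fold. It was at 180, 191 and 143 CPM in the WT libraries and 1151, 974 and 947 CPM in the ArKI libraries (log2 fold change 2.58 ± 0.11 (SE), adjusted p = 2.23e-07), and the groups were far apart. The complement component *C3* was at 15, 18.8 and 17.6 CPM in the WT libraries and 40.4, 39.6 and 30.3 CPM in the ArKI libraries (log2 fold change 1.11 ± 0.11 (SE), adjusted p = 2.21e-06), and *Icam1*, an adhesion molecule, at 2.7, 2.51 and 1.43 CPM in the WT libraries and 4.51, 3.95 and 5.83 CPM in the ArKI libraries (log2 fold change 1.08 ± 0.22 (SE), adjusted p = 0.00584), with an adjusted p of 0.0632 without WT 3. The adhesion molecule *Vcam1* overlapped between groups (log2 fold change 0.26, adjusted p = 0.519). Of 20 acute phase and inflammation genes listed, 10 were tested. Of these 3 rose (30%, beside 1.64% of all tested genes), none fell and the median was 0.41. The other 10, most of the listed cytokines among them, were too low to test, with at most 11 counts in any library. All 11 tested interferon response genes had a positive log2 fold change, as had 7801 of all 15838 tested genes. Their median was 0.27, 0.52 without WT 1 and 0.515 without WT 2. Only *Oasl2*, an oligoadenylate synthetase-like protein, passed, at 3.72, 4.88 and 3.78 CPM in the WT libraries and 7.21, 8.23 and 7.16 CPM in the ArKI libraries (log2 fold change 0.88 ± 0.15 (SE), adjusted p = 0.00112).

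*Lcn2* also stood on the list of rete testis and duct epithelium, with *Ly6d*, a cell surface protein of epithelia. *Ly6d* was at 1.32, 1.51 and 0.214 CPM in the WT libraries and 40.5, 33.3 and 31.2 CPM in the ArKI libraries (log2 fold change 5.07 ± 0.28 (SE), adjusted p = 5.58e-06). Both had been put there with their rises known, and they carried the list: its summed level was 531 to 568 CPM in WT and 1343 to 1541 CPM in ArKI, while the median of its 16 genes was -0.01. The duct markers *Pax2*, *Krt8* and *Epcam* had log2 fold changes of -0.01, -0.06 and -0.05, while those of the water channel *Aqp1*, the cadherin *Cdh1* and the keratin *Krt19* were 0.56, 0.45 and 0.56, with adjusted p from 0.246 to 0.627, and those of the transcription factor *Elf3*, the phosphate carrier *Slc34a2* and the protease inhibitor *Spint1* were -0.58, -0.18 and -0.17, with adjusted p from 0.206 to 0.679. In 5 of the 16 genes (31.2%) all ArKI libraries lay above all WT libraries, against 9.35% of all tested genes, and in 1 (*Slc34a2*) all lay below. *Prom1*, which had the highest CPM besides *Lcn2*, had a log2 fold change of -0.00523. *Pax8* was at 0.42, 0.503 and 0.356 CPM in the WT libraries and 1.13, 1.08 and 0.693 CPM in the ArKI libraries, without overlap (log2 fold change 1.17, adjusted p = 0.127). It was called at an FDR below 0.2 with a fold above 2, as were *Ly6d* and *Lcn2*.

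Epididymal epithelium, which makes *Lcn2* at a high level, was followed with 20 markers of which 13 were tested. Of these none rose in the edgeR test at the FDR of 0.05, 1 fell, and 4 had an unadjusted p below 0.05, with a median of -0.28, which was -0.161 without ArKI 2 and -0.404 without ArKI 1. Their summed level was 330.5 to 363 CPM in WT and 353 to 359 CPM in ArKI. *Gpx5*, a secreted peroxidase of the epididymis, was at 55.8, 49.7 and 50.5 CPM in the WT libraries and 37.2, 31.8 and 38.9 CPM in the ArKI libraries, and fell without overlap (log2 fold change -0.54 ± 0.08 (SE), adjusted p = 0.000487). It stood at 43930 CPM in the WT IS and 52330 in the WT caput. *Cst8*, a cystatin that the testis also makes, and *Npc2*, a cholesterol carrier, had log2 fold changes of 0.14 and 0.24, and *Npc2* passed the FDR of 0.05 when length was corrected for. The part of epididymal tissue in the level of *Lcn2* was not tested.

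The largest rises by fold were mostly in genes that the WT testis hardly expressed. *Cdk5r2*, a neuronal activator of the kinase Cdk5, had 3 counts in all WT libraries together and 138 in the ArKI libraries, a ratio of 37.6 (95% exact interval 12.6 to 185, counting error only). For the ligand *Wnt10a* the counts were 5 and 109, a ratio of 17.8 (7.41 to 56). *Gdf10*, a growth factor of the TGF-β family, was at 0.6001, 0.575 and 0.356 CPM in the WT libraries and 5.33, 4.09 and 4.22 CPM in the ArKI libraries (log2 fold change 3.11 ± 0.26 (SE), adjusted p = 5e-08). *Spink4*, a Kazal-type protease inhibitor, was at 0.6601, 0.862 and 0.642 CPM in the WT libraries and 6.83, 2.92 and 5.31 CPM in the ArKI libraries (log2 fold change 2.76 ± 0.34 (SE), adjusted p = 0.000168), and *Apof*, an apolipoprotein, at 0.54, 0.144 and 0.0713 CPM in the WT libraries and 2.07, 1.22 and 1.62 CPM in the ArKI libraries (log2 fold change 2.55 ± 0.44 (SE), adjusted p = 0.0013). All ArKI libraries of these 5 genes lay above all WT libraries, which the rule for naming genes required. The other members of the 12 largest rises were *Ly6d*, *Spp1*, *Sult1e1*, *Thbs4*, *Lcn2*, *Klk1b22* and *Klk1b27*, described above, and none of the 12 lost its call at an FDR below 0.2 and a fold above 2 under any of the alternatives in which it was tested. At an FDR below 0.05 this does not hold, since *Sult1e1* had an adjusted p of up to 0.192.

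Falls beyond 2-fold were few. The largest by fold was that of *Cxcl14*, a chemokine below 1 CPM in both groups, with 35 counts in the WT libraries together and 4 in the ArKI libraries, a ratio of 0.0935 (95% exact interval 0.0241 to 0.261, counting error only). *Il17rb*, a receptor for interleukins of the IL-17 family, was at 6.001, 5.32 and 5.13 CPM in the WT libraries and 1.504, 2.07 and 1.96 CPM in the ArKI libraries (log2 fold change -1.56 ± 0.18 (SE), adjusted p = 9.05e-06). The chemokine *Ccl28* was at 7.74, 5.39 and 6.63 CPM in the WT libraries and 2.32, 2.82 and 2.08 CPM in the ArKI libraries (log2 fold change -1.44 ± 0.18 (SE), adjusted p = 2.28e-05). For both, every ArKI library was below the lowest WT library, which the rule for naming genes required. The X-linked *4930468A15Rik*, which has no known function, was at 9.36, 13.9 and 9.696 CPM in the WT libraries and 3.95, 4.98 and 4.39 CPM in the ArKI libraries, and the predicted gene *Gm5166*, also X-linked, at 1.98, 1.58 and 1.21 CPM in the WT libraries and 0.313, 0.423 and 0.5198 CPM in the ArKI libraries. Their log2 fold changes were -1.29 ± 0.16 (adjusted p = 1.93e-05) and -1.91 ± 0.33 (adjusted p = 0.00154). *Sox14*, a transcription factor, was at 2.4, 1.94 and 2.07 CPM in the WT libraries and 0.877, 0.423 and 0.635 CPM in the ArKI libraries (log2 fold change -1.76 ± 0.29 (SE), adjusted p = 0.000801), and the kinase gene *Stk32a* at 2.4, 1.29 and 1.14 CPM in the WT libraries and 0.313, 0.282 and 0.808 CPM in the ArKI libraries (log2 fold change -1.82 ± 0.40 (SE), adjusted p = 0.0133). *Scn3a*, a sodium channel, and *Speer8-ps1*, a pseudogene of a family of near copies, were just inside the thresholds, with log2 fold changes of -1.004 and -1.04 and adjusted p of 0.18 and 0.177, and lost their calls under 9 and 8 alternatives. *Scn3a* did so without WT 2, WT 3, ArKI 1 or ArKI 3, and *Speer8-ps1* without WT 1, WT 3, ArKI 1 or ArKI 2.

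The log2 fold changes carried a trend with gene length. Over 15666 genes matched to a transcript, the Spearman correlation of log2 fold change with exon length was -0.34, given as a description because genes share the 6 libraries. Over 5 classes of equal size, the shortest genes, with a median of 1080 bases, had a median log2 fold change of 0.077, and the longest, with a median of 6409 bases, one of -0.083. Library by library, the correlation of the deviation from the mean with length was 0.379, -0.129 and 0.262 in WT and -0.427, -0.146 and 0.0494 in ArKI. WT 1 and ArKI 1 stood at the ends, WT 2 was on the side of the ArKI libraries, and ArKI 3 was between the groups. The correlation was -0.206 without ArKI 1, -0.218 without WT 1, -0.397 without WT 2 and -0.094 without WT 1 and ArKI 1 together. Offsets that follow length in each library brought it to -0.0011, and then 316 genes rose and 60 fell at the FDR of 0.05. Of the 259 rises 248 were still called, and of the 52 falls 38.

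**Figure D3:**
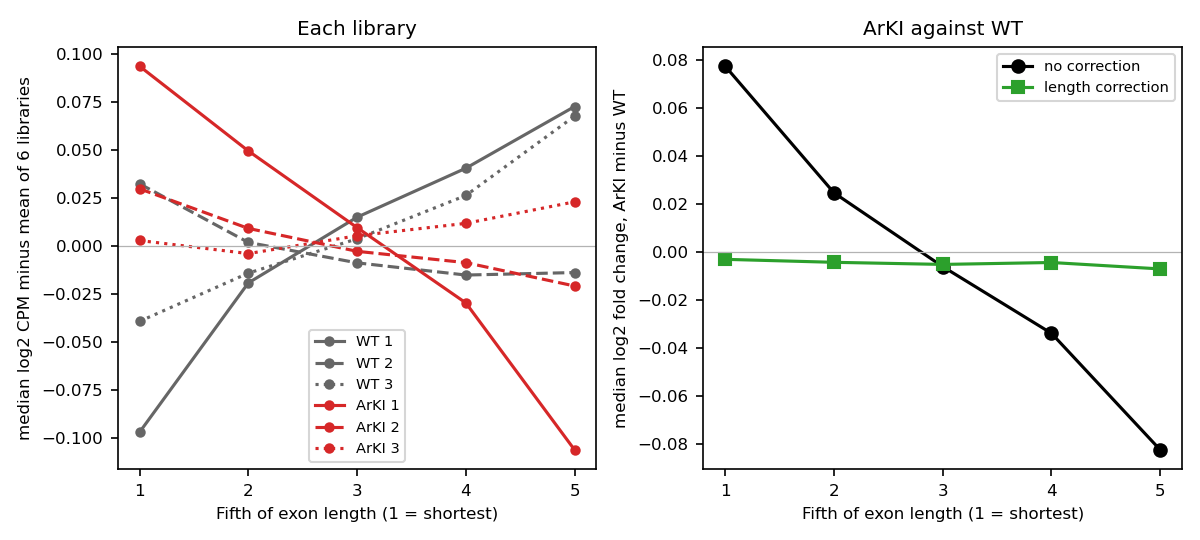
Left, median deviation of log2 CPM from the mean of the 6 testis libraries in each of 5 equal classes of exon length, for each library (grey WT, red ArKI; solid, dashed and dotted lines are replicates 1, 2 and 3). Right, median log2 fold change (ArKI minus WT) by length class before and after the length correction; it runs from 0.077 in the shortest to -0.083 in the longest before, and lies between -0.0071 and -0.0031 after.

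Ribosomal and respiratory chain genes, which are short, followed this trend. Of 69 ribosomal protein genes none passed by edgeR, DESeq2 or limma-voom, and 11 had an unadjusted p below 0.05 by edgeR. With 1 library left out that number was 2 (without ArKI 1) to 21 (without WT 2), with 1 call down without WT 1 and 1 up without WT 2. Their median was 0.14, 0.0822 without ArKI 1 and 0.05 after length correction, and many of these genes have near copies elsewhere in the genome that share reads. *Rpl8* and *Rpl4*, of the large subunit, had log2 fold changes of 0.12 and 0.12. Of 79 respiratory chain genes 72 had a positive log2 fold change, beside 7801 of all 15838 tested genes. Of the 79, 2 rose (2.53%, beside 1.64% of all tested genes), and the median went from 0.13 to 0.03 with the correction. Without WT 2, 4 rose, 1 rose without WT 1, WT 3 or ArKI 1, and the median was 0.0706 without WT 1 and 0.0696 without ArKI 1. *Cox6b1*, a subunit of cytochrome c oxidase, was at 17.4, 18.8 and 19.03 CPM in the WT libraries and 27.5, 24.3 and 24.6 CPM in the ArKI libraries (log2 fold change 0.47 ± 0.09 (SE), adjusted p = 0.00463), with a log2 fold change of 0.34 after correction. *Cox6a1*, of the same complex, was at 69.3, 74.7 and 75.3 CPM in the WT libraries and 103, 91.7 and 82.7 CPM in the ArKI libraries (log2 fold change 0.34 ± 0.08 (SE), adjusted p = 0.0173), and was no longer called after it (adjusted p = 0.101) or without WT 1, WT 3, ArKI 1 or ArKI 2. *Atp5b* and *Atp5a1*, of the ATP synthase, had log2 fold changes of 0.06 and 0.01. The Leydig, *Klk1* and matrix lists had 6, 5 and 7 members called upwards with the correction.

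Many of the genes that rose in the ArKI testis are expressed at a higher level in the epididymis. By library-size CPM in WT, 94 of the 119 genes called upwards at an FDR below 0.2 and a fold above 2 (79%) were higher in the IS or the caput than in the testis, against 52.3% of all tested genes and 4 of the 13 called downwards. A difference above 10-fold was found in 36.1% of the 119 and in 8.57% of all tested genes. The called genes also had low levels in the WT testis, with a median of 1.08 CPM beside 17.3 CPM for all tested genes, and the tissues came from separate runs, so these shares are a description. *Lcn2* was at 170.4 CPM in the WT testis, 7911 in the IS and 2527 in the caput. *C3* was at 16.99 CPM in the WT testis, 159 in the IS and 152 in the caput. The kallikreins and the steroidogenic enzymes differed from this pattern, with *Klk1b24* at 7.29 CPM in the WT testis, 0.141 in the IS and 0.201 in the caput, and *Cyp17a1* at 291 CPM in the WT testis, 1.21 in the IS and 14.7 in the caput.

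**Figure D4:**
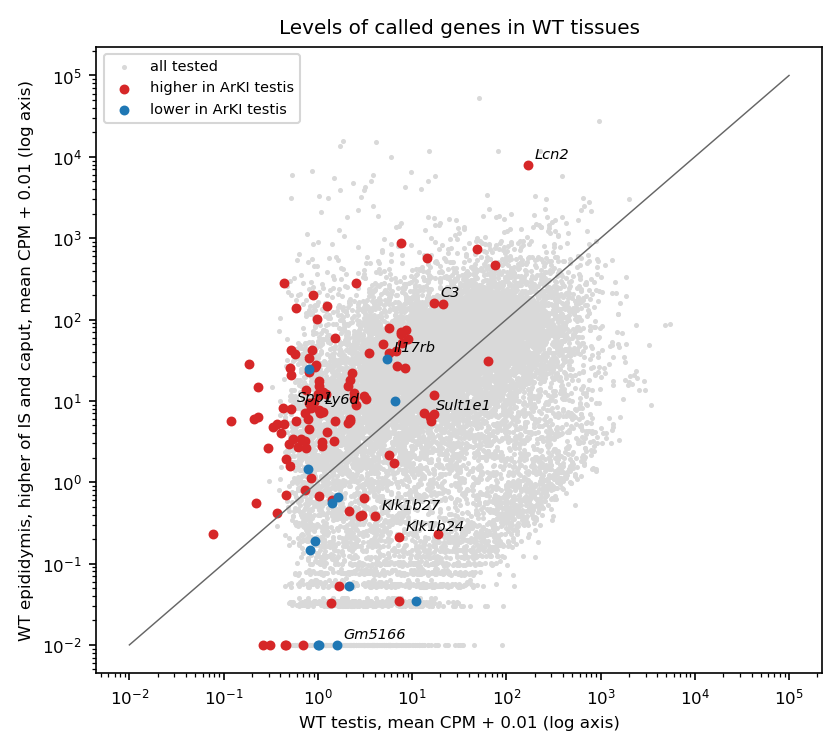
Mean CPM of each tested gene in the WT testis (x axis, n = 3) against the higher of its means in the WT IS and WT caput (y axis), both by library size plus 0.01 and on log axes; the line marks equality. Of the 119 genes higher in ArKI testis (red) 94 lie above the line, among them *Lcn2* and *C3*, while *Sult1e1* and the *Klk1b* genes lie below it, as do 9 of the 13 genes lower in ArKI (blue).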

How the data were processed

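Total RNA of whole testes of 3 WT and 3 ArKI mice was sequenced as 50-base single-end reads. The authors aligned the reads to mm10 with STAR, counted uniquely mapped reads per RefSeq gene with the subread package (Subread 1.5.1 in the submitters' processing notes) and deposited raw counts of 23337 genes without normalization. The labels name a TruSeq v2 kit and the methods a stranded one, and the strand setting of the counting is not given in the sources used here, so reads of overlapping antisense genes cannot be told apart.

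Counts were analysed in R 4.3.3 with edgeR 4.0.16, using filterByExpr (minimum count 10, minimum total 15), TMM factors, a robust quasi-likelihood fit of ArKI against WT and Benjamini-Hochberg adjustment over 15838 genes. The SE of a log2 fold change is its size divided by the square root of the F statistic. The study's ROTS test was not used. Alternatives were limma-voom (3.58.1), DESeq2 (1.42.0), other scalings, filters and thresholds, a replicate block, offsets for exon length and for length with GC (lowess span 0.3), and leaving out each sample. For single samples, 0.5 was added to CPM before taking log2. Lengths came from GENCODE vM21 transcripts (GRCm38), which matched 22872 of the 23337 symbols. The fits were tested on simulated data.

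The gene lists and members were chosen with earlier results of these data known. Genes named were the 12 largest rises and all falls (at most 12) among genes at an FDR below 0.2 and a fold above 2 with no overlap of groups and at least 1 CPM in the higher group, up to 4 passing and the 2 members of each list and the 4 genes overall with the highest CPM in WT. Other names (*Hsd17b3*, *Star*, *Hsd3b1*, *Hsd3b6*, *Insl3*, *Lhcgr*, *Nr5a1*, *Cyp21a1*, *Klk1b16*, *Gfra1*, *Stra8*, *Rhox5*, *Kitl*, *Inhbb*, *Pax2*, *Pax8*, *Krt8*, *Epcam*, *Aqp1*, *Cdh1*, *Krt19*, *Elf3*, *Slc34a2*, *Spint1*, *Cxcl14*, *Klk1*, *Klk1b1*, *Klk1b3*, *Klk1b4*, *Klk1b5*, *Klk1b11*, *Klk1b26*, *Sycp3* and those of the closing observations) were chosen after their values were seen. A few genes that the rule also names are not reported here.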

Additional observations from a re-analysis of the deposited data

How the results depend on the processing

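Counts of called genes were given again under each alternative. At an FDR below 0.2 and a fold above 2, the 119 rises became 72 with at least 10 counts in every sample, since fewer low genes were tested. The 13 falls became 3 under that filter, 20 with no filter beyond 1 count, 20 without the libraries at both ends of the length trend (chosen after seeing the data) and 7 at an FDR below 0.05, and 11 to 23 with 1 library left out (23 without WT 2). At an FDR below 0.05, the 259 rises ranged from 165 (without WT 3) to 268 with 1 library left out and reached 355 with no filter, and the 52 falls from 21 (without WT 3) to 121 (without WT 2), with 112 when no filter was used. The cause was not tested. The replicate numbers do not pair the libraries (correlation of deviations 0.0106, -0.0048 and 0.0556 for equal numbers). With a replicate block 120 genes rose and 16 fell by the first rule, and 255 rose and 50 fell by the second. Among Leydig genes the block counted 4 up and 1 down.

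List medians moved by more than the spread between replicates in a minority of alternatives. Smooth muscle genes gave 0.155 with length correction, 0.162 with length and GC and 0.154 without both end libraries, and 0.083 to 0.204 with 1 library left out. Respiratory chain genes gave 0.0292, 0.0328 and 0.0342 under these 3, and steroid receptor genes -0.0328, -0.0466 and -0.0462, with -0.117 to -0.048 over single omissions. Without both end libraries, the endothelial median was -0.0519, the blood gene -0.136, the ribosomal median 0.0223, the acute phase median 0.651 and the interferon median 0.551. With at least 10 counts in every sample, matrix genes gave 0.0269, *Klk1* genes 1.03 and acute phase genes 0.264. With no filter, acute phase genes gave 0.266 and interferon genes 0.431. With 1 library left out, macrophage genes ranged from 0.235 to 0.352, matrix genes from 0.0485 to 0.154, *Klk1* genes from 0.411 to 1.05, acute phase genes from 0.376 to 0.617 and interferon genes from 0.272 to 0.520. The correlation of log2 fold change with length was -0.0011 and -0.0041 under the 2 corrections.

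Of 82 genes named by rule, 42 passed. Over 659 repeats of these 42 none changed direction, and 65, in 13 genes, lost the call. The call was read at an FDR below 0.2 and a fold above 2 for genes that met both, *Sult1e1* among them, and otherwise at an FDR below 0.05. With 3 libraries a group and a floor of 0.14 to 0.213 CPM, genes near the floor and changes well below 2-fold are the least certain. The count of cells of each type was not measured.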

Other observations

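Some gene families outside the lists were counted after their values had been seen, so the counts and tests below are a description. Of all tested genes, 1.64% rose and 0.328% fell at an FDR below 0.05, and 7801 of 15838 had a positive log2 fold change. Of 11 tested cathepsins, the lysosomal proteases, all had a positive log2 fold change and 5 rose at an FDR below 0.05, with a median of 0.39. *Ctsb* was at 87.9, 72.9 and 84.05 CPM in the WT libraries and 119.6, 115 and 119 CPM in the ArKI libraries (log2 fold change 0.53 ± 0.07 (SE), adjusted p = 6.56e-05). Of 13 genes for MHC class I and its peptide loading, 4 rose (*B2m*, *H2-D1*, *H2-K1* and *Psmb9*) and none fell. *B2m*, the light chain of class I molecules, was at 31.9, 27.2 and 27.8 CPM in the WT libraries and 64.4, 49 and 52.5 CPM in the ArKI libraries (log2 fold change 0.93 ± 0.10 (SE), adjusted p = 3.58e-06). The *H2* genes are similar enough to share reads. Of 24 complement genes 6 rose, with *C3*, *C1qb*, *C1ra*, *C3ar1*, *Cd59a* and the inhibitor gene *Serping1*, which was at 28.2, 28.6 and 21.7 CPM in the WT libraries and 46.5, 43.97 and 41.5 CPM in the ArKI libraries (log2 fold change 0.75 ± 0.09 (SE), adjusted p = 3.28e-05). Of 21 serpins, the serine protease inhibitors, 8 rose and none fell, and *Serpina5*, which binds proteases of the reproductive tract, was at 92.9, 99 and 83.4 CPM in the WT libraries and 129, 114 and 130.3 CPM in the ArKI libraries (log2 fold change 0.44 ± 0.07 (SE), adjusted p = 0.000924).

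Of 18 tested glutathione transferases none rose by edgeR and 2 fell, while 13 had a positive log2 fold change and the median was 0.081. *Gstm1* was at 424, 322 and 340.4 CPM in the WT libraries and 278, 234 and 239.8 CPM in the ArKI libraries (log2 fold change -0.53 ± 0.10 (SE), adjusted p = 0.0132), and *Gsta2* at 5.58, 5.82 and 5.49 CPM in the WT libraries and 3.13, 3.29 and 3.46 CPM in the ArKI libraries (log2 fold change -0.77 ± 0.15 (SE), adjusted p = 0.00567). Near copies in the *Gstm* and *Gsta* families share reads. With length corrected, *Gstm1* had an adjusted p of 0.147. Of 13 *Wnt* ligands 3 rose, *Wnt10a*, *Wnt4* and *Wnt6*. *Wnt6*, the one with the highest CPM of the 3, was at 19.1, 18.2 and 14.6 CPM in the WT libraries and 48.7, 47.3 and 44.9 CPM in the ArKI libraries (log2 fold change 1.44 ± 0.09 (SE), adjusted p = 2.01e-09), and *Wnt4* was at 0.24, 0.359 and 0.0713 CPM in the WT libraries and 1.06, 0.893 and 1.04 CPM in the ArKI libraries (log2 fold change 2.11 ± 0.44 (SE), adjusted p = 0.0089).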
